A study of Mus musculus with 6 samples.

Results

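Gsdmd, Il2 and H2-M2 are 3 genes of immune function whose transcripts were measured in small extracellular vesicles from brown adipose tissue (sEV-BAT) and from white adipose tissue (sEV-WAT) of mice. They were taken by their probe identifiers, A_51_P172231 (NM_026960, Gsdmd), A_51_P114222 (NM_008366, Il2) and A_51_P191463 (NM_001347387, H2-M2), from the 46 probes that could be paired with a gene symbol among 60823 probes on the array. The genes were chosen by identifier, but with their intensities and detection flags on these same arrays known, and these measured values count as the basis of the choice. For that reason their levels and the differences between sEV-BAT and sEV-WAT are given as a description, without p-values. Each probe was printed 10 times on every array.

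The study profiled sEV RNA on 6 arrays of 1 colour (Arraystar Mouse LncRNA Arrays V4), 3 with sEV-BAT and 3 with sEV-WAT, and the label of each array names it as a separate replicate. All mice were C57BL/6 males, aged 6 to 8 weeks by the labels, and the labels name no treatment, transgene or deletion. sEV-BAT came from interscapular fat and sEV-WAT from inguinal fat. Each replicate pooled mice, and the fat pieces were stirred in culture medium for 2 days before the vesicles were spun down, so every cell type of the cultured tissue could have released them. A difference in any of the 3 genes could lie in the number of vesicles that carry the transcript or in the transcript per vesicle. These cannot be told apart.

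GSDMD, the product of Gsdmd, is cut by inflammatory caspases, and its freed fragment opens pores in the cell membrane during pyroptosis. Interleukin 2, the product of Il2, is a growth factor of T lymphocytes that is made mainly by activated T cells and acts through the interleukin 2 receptor. H2-M2 belongs to the MHC class I heavy chain genes of the mouse, a large family whose classical members present peptides to cytotoxic T cells and whose nonclassical members have more restricted expression and other roles. Adipose tissue holds macrophages, lymphocytes and vessel cells beside adipocytes, and vesicles can carry transcripts, whole or in fragments, of the cells that release them.

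The arrays of the 2 groups differed in brightness before any normalization. The intensity of the median probe lay between 57.1 and 58.5 in the sEV-WAT replicates and between 81.2 and 92.1 in the sEV-BAT replicates, and no spot was saturated. The share of probes well above background was 90.0% to 93.4% in sEV-BAT and 84.8% to 86.4% in sEV-WAT. A single slide carried sEV-BAT 1 and all sEV-WAT replicates, and the remaining sEV-BAT replicates were on a different slide. The labelled tissues could not be checked against their markers, because 0 of the 33 markers listed for adipocytes, vesicles and leukocytes was paired with a probe.

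The probes of all 3 genes were well above background on every sEV-BAT and every sEV-WAT array. So were most probes on each array, 90.0% to 93.4% in sEV-BAT and 84.8% to 86.4% in sEV-WAT. Of the 60 spots of each gene over the 6 arrays, 60 were well above background for Gsdmd, 60 for Il2 and 60 for H2-M2. The levels before normalization stood 12.2 to 29.0 times above the lowest intensity of any probe well above background on the same array for Gsdmd, 27.2 to 41.2 times for Il2, and 170 to 288 times for H2-M2. That lowest intensity itself differed between arrays, from 5.14 on sEV-WAT 2 to 10.6 on sEV-BAT 3. Within the whole array, Gsdmd and Il2 lay above the median probe but below the 75th percentile on every array. H2-M2 lay above both. The 75th percentile was 509 to 536 in sEV-BAT and 354 to 403 in sEV-WAT. Spots of a gene agreed closely within an array. Their coefficient of variation was 3.32% to 6.24% for Gsdmd, 2.15% to 4.08% for Il2 and 2.68% to 5.02% for H2-M2, after 3 Gsdmd spots and 2 Il2 spots that the scanner software marked as outliers were left out. The spots of an array come from the same RNA, so this spread is a technical one and the arrays remain the replicates.

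**Figure D1:**
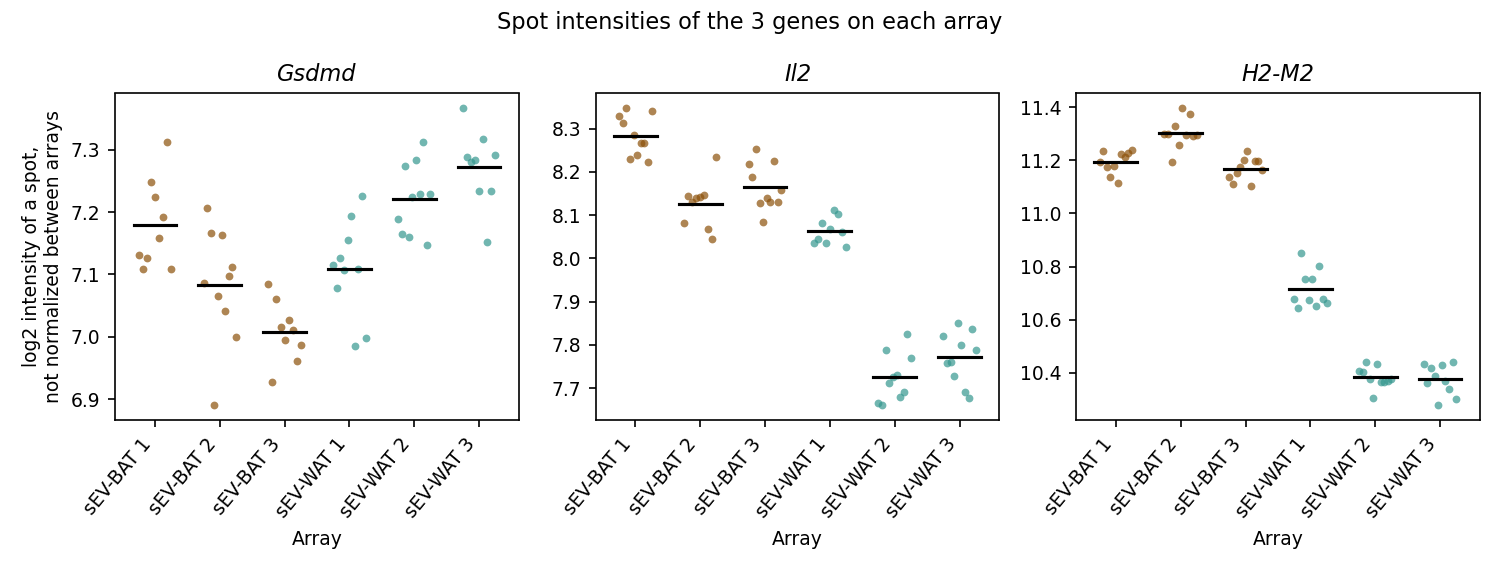
Spot intensities of Gsdmd, Il2 and H2-M2 on the log2 scale, not normalized between arrays, for each of the 6 arrays (brown points, sEV-BAT; green points, sEV-WAT; black line, mean of the spots kept on the array). Every H2-M2 spot of sEV-BAT lay above every H2-M2 spot of sEV-WAT, whereas the Gsdmd spots of the groups overlapped. On this scale, 70.1% of probes had every sEV-BAT array above every sEV-WAT array.

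Gsdmd, the pore-forming gene, was similar in both kinds of sEV as scanned and lower in sEV-BAT once the arrays were brought to a common scale. Its mean spot intensity was 145, 136 and 129 on sEV-BAT 1 to 3 and 138, 149 and 155 on sEV-WAT 1 to 3. The groups overlapped here, with sEV-BAT 1 above sEV-WAT 1. After quantile normalization, the normalization used in the study, its log2 level was 6.90, 6.89 and 6.68 in sEV-BAT and 7.30, 7.49 and 7.57 in sEV-WAT. Every sEV-BAT array was then below every sEV-WAT array, with a gap of 0.40 between the nearest arrays. sEV-BAT averaged 6.82 ± 0.12 (SD, n = 3) and sEV-WAT averaged 7.45 ± 0.14 (SD, n = 3), a log2 difference of -0.63 with a standard error of 0.12, and the level was 1.55-fold higher in sEV-WAT. On the same scale, 21.8% of the 54380 probes with values on all arrays had every sEV-BAT array below every sEV-WAT array. With the 75th percentile of each array subtracted instead, the groups of Gsdmd were also separate, in the direction found at 14.3% of probes, and the log2 difference was -0.60. Without normalization the log2 difference was -0.11 with a standard error of 0.12, and 1.35% of probes had every sEV-BAT array below every sEV-WAT array.

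Il2, the T cell growth factor gene, differed by little more than its standard error after quantile normalization, and its direction depended on the scale. The mean spot intensity was 312, 280 and 287 in sEV-BAT and 267, 212 and 219 in sEV-WAT. Each sEV-BAT array was above each sEV-WAT array as scanned, although sEV-WAT 1 came within 0.06 of sEV-BAT 2 on the log2 scale, and 25 of 29 sEV-BAT spots were brighter than every sEV-WAT spot. Before normalization, 70.1% of probes had every sEV-BAT array above every sEV-WAT array. With quantile normalization the log2 level was 8.03, 7.90 and 7.92 in sEV-BAT and 8.21, 8.00 and 8.08 in sEV-WAT, and the groups overlapped because sEV-BAT 1 exceeded sEV-WAT 2. sEV-BAT averaged 7.95 ± 0.07 (SD, n = 3) and sEV-WAT averaged 8.10 ± 0.11 (SD, n = 3), so that the log2 difference was -0.15 with a standard error of 0.10, against 0.34 with a standard error of 0.14 without normalization. A subtraction of the 75th percentile of each array gave -0.15 as well.

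H2-M2, the MHC class I gene, was higher in sEV-BAT under every scale used, but by very different amounts. The mean spot intensity was 2343, 2528 and 2300 in sEV-BAT and 1682, 1337 and 1329 in sEV-WAT. All 30 sEV-BAT spots, from 3 arrays, exceeded all 30 sEV-WAT spots, also from 3 arrays. As scanned, 70.1% of probes likewise had every sEV-BAT array above every sEV-WAT array. The lowest sEV-BAT spot had an intensity of 2202 and the highest sEV-WAT spot 1847. The log2 levels without normalization were 11.22 ± 0.07 (SD, n = 3) and 10.49 ± 0.19 (SD, n = 3), a log2 difference of 0.73 with a standard error of 0.14. After quantile normalization they were 10.96, 10.89 and 11.002 in sEV-BAT and 10.84, 10.70 and 10.73 in sEV-WAT. The groups still did not overlap, but only 0.05 separated sEV-BAT 2 from sEV-WAT 1. sEV-BAT averaged 10.95 ± 0.06 (SD, n = 3) and sEV-WAT averaged 10.76 ± 0.07 (SD, n = 3), which is a log2 difference of 0.19 with a standard error of 0.09, or a 1.14-fold higher level in sEV-BAT. On the quantile scale, 14.5% of probes had every sEV-BAT array above every sEV-WAT array. With the 75th percentile subtracted, the H2-M2 groups were separate in the same direction, as at 22.4% of probes, with a log2 difference of 0.24.

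**Figure D2:**
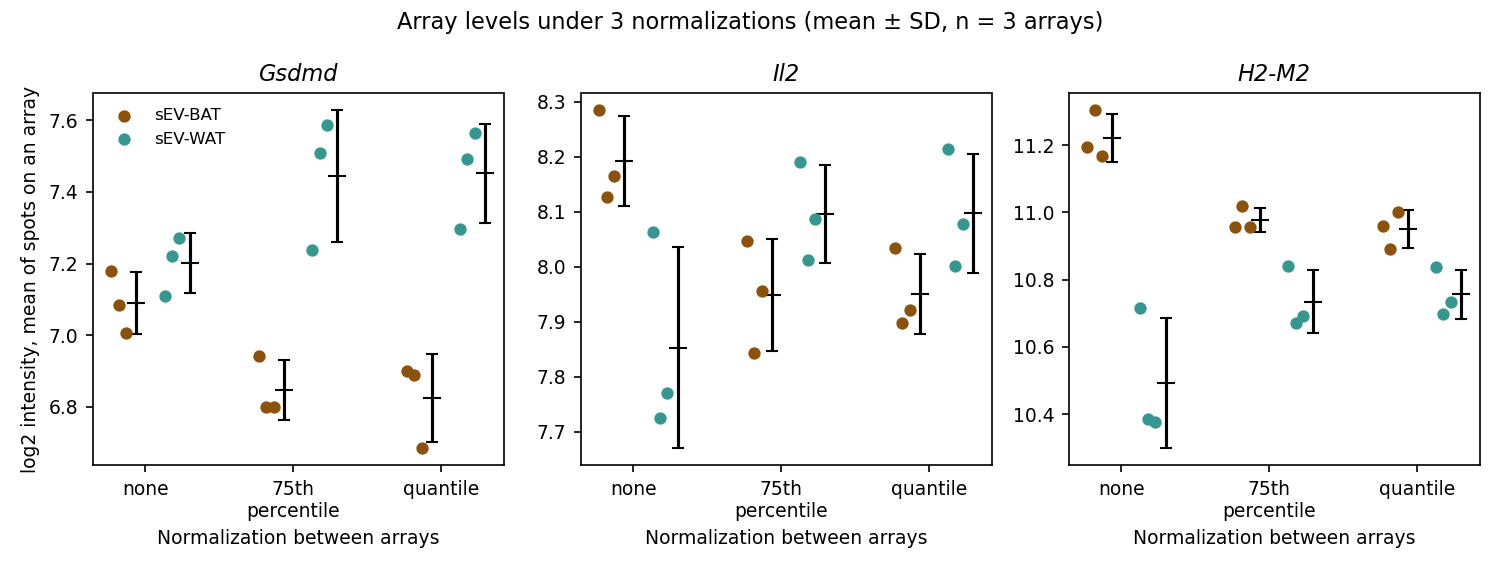
Log2 intensity of each gene per array, as the mean of its spots, without normalization, with the 75th percentile of each array subtracted, and with quantile normalization (brown, sEV-BAT; green, sEV-WAT; horizontal mark and bar, mean ± SD of 3 arrays). Gsdmd separated into lower sEV-BAT and higher sEV-WAT levels on both normalized scales, Il2 had opposite directions with and without normalization, and H2-M2 kept sEV-BAT above sEV-WAT on all scales shown.

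The brightness of the whole array moved with these values. Over the 54443 probes detected in 3 or more arrays, the median log2 difference was 0.62 without normalization and -0.02 with quantile normalization. Relative to that median, the unnormalized difference was -0.73 for Gsdmd, -0.28 for Il2 and 0.11 for H2-M2. Relative to the median under quantile normalization it was -0.61 for Gsdmd, -0.13 for Il2 and 0.21 for H2-M2. The order of the genes, with Gsdmd lowest and H2-M2 highest, was the same on both scales. Subtracting 1 median per scale cannot change this order. Quantile normalization lowered all 3 differences by similar amounts, so the shared order adds little. The part of RNA amount, labelling or hybridization in the difference of brightness was not tested.

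**Figure D3:**
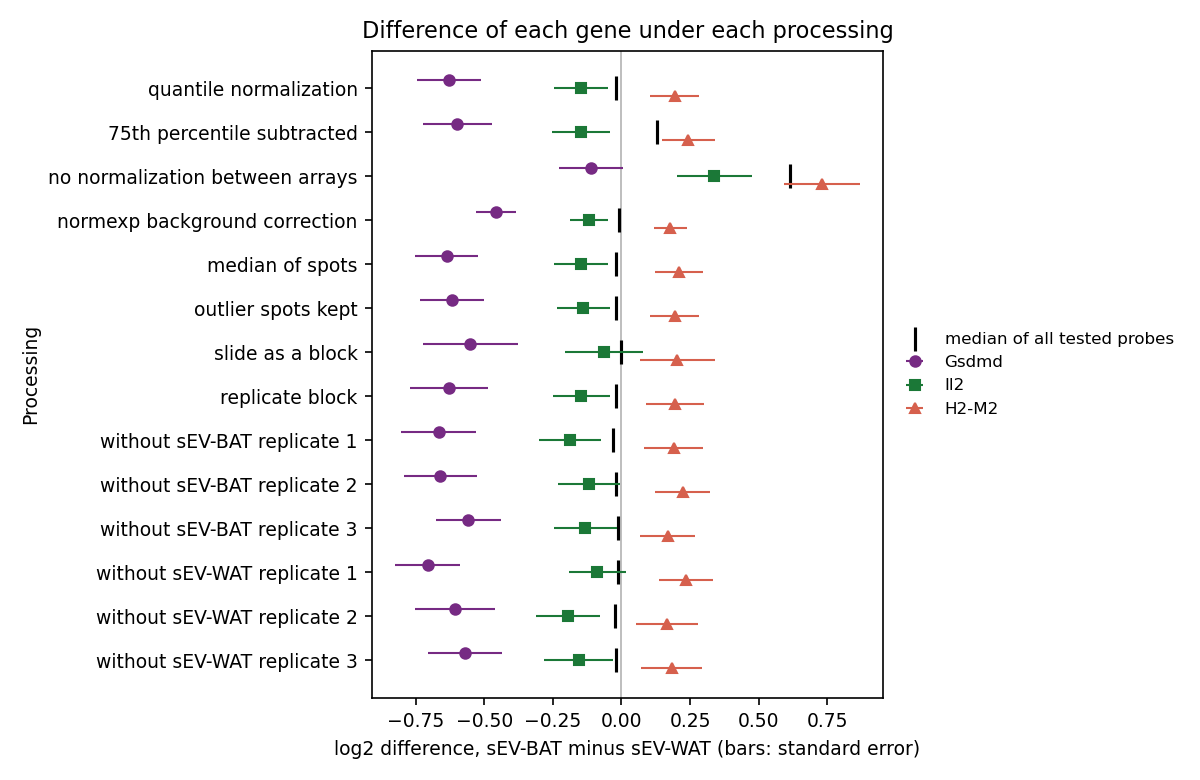
Log2 difference (sEV-BAT minus sEV-WAT, horizontal axis) of Gsdmd, Il2 and H2-M2 under each processing (rows), with bars for the standard error and a black tick for the median of all tested probes. Gsdmd lay left of the tick and H2-M2 right of it in all rows, and without normalization all 3 genes and the tick were shifted to the right.

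Differences between 2 probes of the same array do not depend on a scaling that shifts the whole array. The H2-M2 intensity minus the Gsdmd intensity, on the log2 scale without normalization, was 4.01, 4.22 and 4.16 in sEV-BAT and 3.61, 3.16 and 3.10 in sEV-WAT. The groups did not overlap, and sEV-WAT 1 lay nearest to sEV-BAT. The difference was therefore 0.84 greater in sEV-BAT, or 1.79-fold in intensity, and 0.82 greater after quantile normalization. Il2 minus Gsdmd was 1.11, 1.04 and 1.16 in sEV-BAT and 0.95, 0.50 and 0.50 in sEV-WAT, which is 0.45 greater in sEV-BAT (0.48 after quantile normalization). sEV-WAT 1 was again close to the sEV-BAT arrays. H2-M2 minus Il2 was 2.91, 3.18 and 3.002 in sEV-BAT and 2.65, 2.66 and 2.60 in sEV-WAT, which is 0.39 greater in sEV-BAT (0.34 after quantile normalization). The 3 probes thus did not shift by the same amount between sEV-BAT and sEV-WAT, and these values do not show which of them, if any, was constant. How many other probe pairs separate in this way was not counted, and H2-M2 minus Il2 follows from the pairs with Gsdmd. Among single quantile-normalized probes, 14.5% had every sEV-BAT array above every sEV-WAT array, and 21.8% had every one below.

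**Figure D4:**
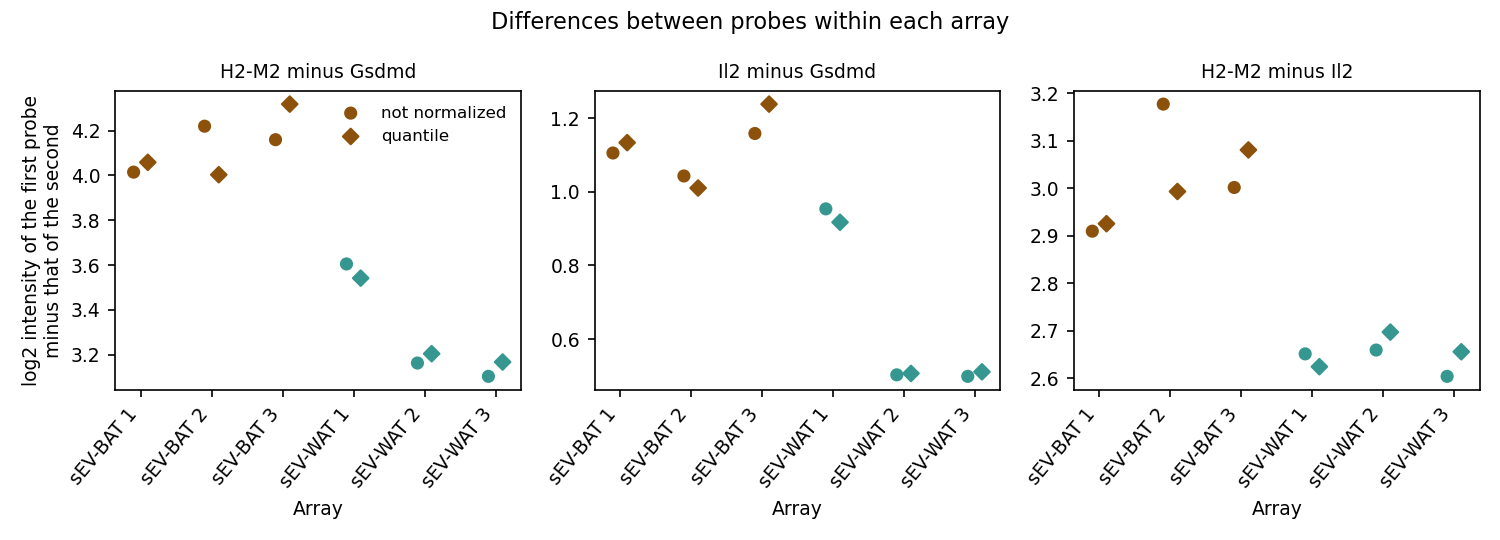
Log2 intensity of one probe minus that of another on the same array, for the 3 pairs of genes (brown, sEV-BAT; green, sEV-WAT; circles, not normalized; diamonds, quantile-normalized). The sEV-BAT arrays lay above the sEV-WAT arrays in each pair, and for both pairs with Gsdmd, sEV-WAT 1 was the sEV-WAT array nearest to them. The share of other probe pairs that separate in this way was not counted.

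The slide could be held constant for sEV-BAT 1 alone. On its slide, with quantile normalization, sEV-BAT 1 minus the mean of the 3 sEV-WAT arrays was -0.55 for Gsdmd, -0.06 for Il2 and 0.20 for H2-M2, which are close to the differences over all arrays for Gsdmd and H2-M2. With 1 sEV-BAT array on that slide there is no spread between replicates for this comparison. The comparison over all arrays uses the same sEV-WAT arrays and includes sEV-BAT 1, so closeness was partly built in. The recorded scan date of sEV-WAT 2 differed from that of the other arrays. Without sEV-WAT 2 the log2 difference was -0.61 for Gsdmd, -0.19 for Il2 and 0.17 for H2-M2.

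Of the genes that act with these 3, few could be followed. Lists of pyroptosis and inflammasome genes (17 genes), interleukin 2 pathway genes (11 genes) and MHC class I genes (15 genes) had 0, 0 and 1 member paired with a probe. That member was H2-Q7, a nonclassical MHC class I gene that encodes the Qa-2 antigen. Its intensity was 74.5, 129 and 125 in sEV-BAT and 41.9, 45.8 and 46.0 in sEV-WAT, and all of its spots were well above background. Its quantile-normalized log2 level was 5.88, 6.82 and 6.64 in sEV-BAT and 5.71, 5.84 and 5.81 in sEV-WAT. sEV-BAT 2 and sEV-BAT 3, which share a slide, were high, and sEV-BAT 1 was only 0.04 above the highest sEV-WAT array. The log2 difference of 0.66, with a standard error of 0.25, passed neither the study's threshold of a 2-fold change with an unadjusted p of at most 0.05 nor the adjusted threshold (limma, unadjusted p = 0.0361, adjusted p = 0.145). The Benjamini-Hochberg adjustment was over the tested probes, those that passed the detection filter. At the study's threshold, 1.11% of all tested probes were higher and 1.16% lower in sEV-BAT, and for 7.61% the limma p after adjustment did not exceed 0.05. These 4141 probes became 0 with slide as a block and when sEV-BAT 3, sEV-WAT 1, sEV-WAT 2 or sEV-WAT 3 was left out, with 6404 probes at an unadjusted limma p up to 0.05 under the block and 11243 to 13728 without one of these arrays. They became 1951 without sEV-BAT 1, where the groups were on different slides. On the slide of sEV-BAT 1 the H2-Q7 difference was 0.09, from that array alone against the 3 sEV-WAT arrays. Without sEV-BAT 1 it was 0.95 and passed the adjusted threshold (limma, adjusted p = 0.0424) but not the 2-fold one. In that fit the groups were on different slides, so tissue and slide cannot be told apart. Without normalization the H2-Q7 difference was 1.26 and passed both thresholds (limma, adjusted p = 0.0065). On that scale, 8882 of the 54443 tested probes passed the study's threshold as higher and 35568 passed the adjusted one. The median difference of the tested probes was then 0.62. MHC class I genes have closely related sequences, and whether the H2-M2 and H2-Q7 probes also bound transcripts of other family members was not tested.

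Among the 45 other probes paired with a gene, the profiles most like that of Gsdmd over the 6 quantile-normalized arrays were those of Pex11a, a peroxisome proliferation gene, and E2f1, a cell cycle transcription factor, with Pearson's r of 0.99 and 0.97. These probes had log2 differences between sEV-BAT and sEV-WAT of -0.57 and -0.41. Most like Il2 were Hyal3, a hyaluronidase gene, and Actb, the gene of beta-actin, with r of 0.94 and 0.78. Their log2 differences were -0.17 and -0.90, against -0.15 for Il2. Actb had low mean log2 levels, 3.92 in sEV-BAT and 4.82 in sEV-WAT. For H2-M2 they were Gm9789, Gamt, an enzyme of creatine synthesis, and Tm9sf1, with r of 0.92, 0.90 and 0.89, and log2 differences of 1.02, 0.19 and 0.82. The 6 arrays are shared by all of these probes, and the difference between the groups enters every r. Without normalization r with Gsdmd was 0.58 for Pex11a and -0.06 for E2f1, r with Il2 was 0.99 for Hyal3 and 0.16 for Actb, and r with H2-M2 was 0.98 for Gm9789, 0.99 for Gamt and 0.99 for Tm9sf1.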

How the data were processed

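Total RNA of sEV-BAT and sEV-WAT was labelled with Cy3 and hybridized to 6 arrays. Per the file headers, the authors extracted spot intensities with Agilent Feature Extraction 11.0.1.1, which subtracts background and marks outlier and detected spots. The deposited intensities are not normalized between arrays. The authors also deposited log2 values, quantile-normalized in GeneSpring, for 60641 probes, of which 0 were the 3 probes described, so these values were not tested.

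Here, outlier spots were left out, log2 intensities of the spots of a probe were averaged, and arrays were quantile-normalized in limma 3.58.1 (R 4.3.3). An array counted as well above background where most spots of a probe carried that flag. Probes so detected on at least 3 of 6 arrays were fitted with limma, which was tested on simulated data. Differences are sEV-BAT minus sEV-WAT, and p-values were adjusted over the fitted probes by Benjamini and Hochberg. The members and lists were chosen with earlier results of these data known. Gene symbols came from RefSeq accessions in a GRCm38.p6 table. Coordinates were not used, since the files name build mm9, and probe sequences were not used here. Named genes are the 3 members, the listed genes paired with a probe, and the 3 probes most correlated with each member, of which some are not reported here. Python 3.11.15, pandas 2.3.3 and matplotlib 3.10.9 were used for the rest. The methods divide the mice into groups for the replicates, so sEV-BAT and sEV-WAT may share mice, but which arrays would pair is not stated in the sources used here. Alternatives changed normalization, background correction, filter, block and test, and left out each array. Normexp used median intensities, as the scanner files give no mean per spot. The number of arrays limits the precision.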

Additional observations from a re-analysis of the deposited data

How the results depend on the processing

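Without normalization between arrays, the log2 differences were -0.11 for Gsdmd (main value -0.63), 0.34 for Il2 (-0.15, so its sign reversed) and 0.73 for H2-M2 (0.19). The median of the tested probes was then 0.62. Normexp background correction brought Gsdmd to -0.46. The other alternatives moved these differences by less than the spread between replicates. With each array left out in turn they ran from -0.71 to -0.56 for Gsdmd, from -0.19 to -0.09 for Il2 and from 0.17 to 0.24 for H2-M2. Detection on 6 of 6 arrays was the same under the other flag rules tried. H2-Q7 was at 1.26 without normalization, past the study's threshold, and from 0.47 to 0.95 with each array left out, not past it, although without sEV-BAT 1 its adjusted limma p was 0.0424.

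At the study's thresholds limma called 605 probes higher and 630 lower in sEV-BAT. The numbers were 1505 and 379 with the 75th percentile subtracted, 8882 and 48 without normalization, 185 and 335 with normexp, and 214 and 427 with slide as a block. With each array left out they ran from 382 (without sEV-BAT 3) to 1410 (without sEV-BAT 2) higher and from 387 (without sEV-BAT 3) to 1109 (without sEV-BAT 2) lower, and 1241 were higher without sEV-BAT 1. Every sEV-BAT array was above every sEV-WAT array at 14.5% of probes and below at 21.8%, against 22.4% and 14.3% with the 75th percentile subtracted and 70.1% and 1.35% without normalization. The cause of these shifts was not tested.

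The replicate number as a block left the differences of the 3 genes at -0.63, -0.15 and 0.19 and gave 661 probes higher and 622 lower. After adjustment limma called 4141 probes with all arrays and no block. It called 0 with the replicate block (12499 at an unadjusted p up to 0.05), 0 with slide as a block (6404) and 0 without sEV-BAT 3 or any one sEV-WAT array (11243 to 13728). It called 1951 without sEV-BAT 1, 4502 without sEV-BAT 2, 1491 with no filter on dim probes, 7322 with normexp and 35568 without normalization. Deviations from the group means of same-numbered arrays correlated at -0.25, -0.09 and 0.22. These 3 values cannot show whether same-numbered arrays share mice. The sources do not state which arrays pair, so the main fit had no replicate block. The methods' t-test gave 427 higher and 543 lower, and 62 after Benjamini-Hochberg adjustment.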

Other observations

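Over all 10 spots of a gene, outlier spots included, some places on the array deviated more than others. The spot in row 31 and column 118 was the brightest Gsdmd spot on 3 of 6 arrays and lay 0.11 above the mean of its array on the log2 scale, averaged over the 6 arrays, with deviations from 0.02 to 0.21. The most deviating Il2 spot, in row 72 and column 100, lay 0.05 above the mean of its array. For H2-M2 the most deviating spot, in row 104 and column 164, had a mean deviation of -0.04. These places are the same on all arrays.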
